A study of Mus musculus with 12 samples.

Results

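Apolipoproteins are the proteins that coat lipoproteins, the particles in which cholesterol and triglyceride travel in blood. This account follows the transcripts of 10 of them in liver and brain of Mettl5 knockout (KO) and wild-type (WT) mice. The 10 genes (Apoa1, Apoa2, Apoa4, Apoa5, Apob, Apoc1, Apoc2, Apoc3, Apoe and Apoh) were taken by symbol from a table of 55487 genes, and all 10 were found in it. Mettl5 encodes a methyltransferase that places N6-methyladenosine on 18S ribosomal RNA.

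Liver and brain were taken from each of 6 mice and their total RNA was sequenced, which gave 12 libraries in 4 groups of 3. KO liver and KO brain came from mice A, C and F, and WT liver and WT brain came from mice B, D and E. The KO allele lacks exon 2 of Mettl5 in the whole body. It was made by mating a floxed line, derived from C57bl/6 x 129S6 hybrid embryonic stem cells and backcrossed to B6, to a deleter strain, B6.C-Tg(CMV-cre)1Cgn/J, in which the CMV promoter drives Cre. The labels call the controls WT, while a legend of the study calls the controls of its RNA-seq heterozygous (Mettl5+/-), and no treatment is named. The labels give neither sex nor age. The libraries of mice E and F had at most 20 counts over 4 Y-linked genes, against 2112 to 3302 in the other libraries, and 9446 to 19028 counts of Xist, against at most 19, so each genotype held 1 such mouse.

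The liver makes most of the apolipoprotein that circulates. Apob is the structural protein of chylomicrons and very low density lipoprotein (VLDL), Apoa1 and Apoa2 are the main proteins of high density lipoprotein (HDL), and the small Apoc proteins and Apoa5 set how fast lipoprotein lipase clears triglyceride. Apoe is a ligand of lipoprotein receptors, and in the brain, behind the blood-brain barrier, it is secreted mainly by astrocytes.

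Most of the 10 genes lie in 2 clusters of neighbouring genes. The cluster on chromosome 7 (mm10, chr7:19671579-19699188, 27.6 kb) holds Apoc2, Apoc1, Apoe and Apoc4, which is not one of the 10, on the minus strand. The cluster on chromosome 9 (chr9:46228580-46271919, 43.3 kb) holds Apoa1, Apoa4 and Apoa5 on the plus strand and Apoc3 on the minus strand. Apoa2 is at chr1:171225054-171226379, Apob at chr12:7977648-8016835 and Apoh at chr11:108343354-108414396, all on the plus strand.

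**Figure D1:**
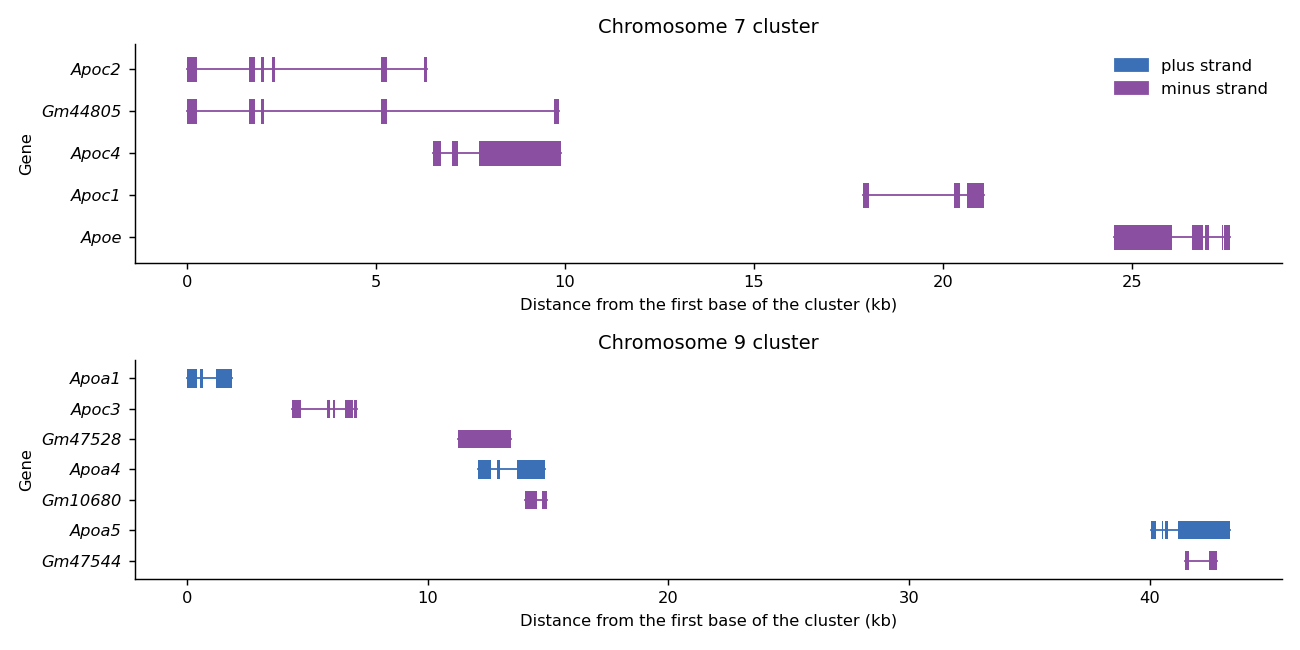
Exons (boxes) and spans (lines) of the genes in the chromosome 7 and chromosome 9 apolipoprotein clusters, as annotated in the count table, against distance from the first base of each cluster in kb. Apoc2 shares most of its exons with Gm44805 on the same strand, while Apoa4 and Apoa5 overlap genes on the opposite strand.

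Overlap with other genes bears on what could be counted. Apoc2 shares 646 of its 813 exon bases (79.5%) with Gm44805, a gene model that reads from Apoc4 into Apoc2 on the same strand, and Gm44805 had 0 counts in all 12 libraries. The counting program leaves out reads that fall on more than 1 gene unless told otherwise, and the study's methods name no such option, so only the other 167 exon bases of Apoc2 may have been counted. Apoa4, Apoa5 and Apoh share 1266, 524 and 30 exon bases with genes on the opposite strand, and counting was by strand.

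The stretches just before the starts of 4 members are shown because these 4 span the range of the results: Apoe was the member with a high level in both tissues, Apoa1 the member with the lowest p for a difference of genotype effects between the tissues, and Apob and Apoa5 were almost absent from brain. Each run is the 150 bases before the first base of the gene, taken as the earlier of the start in the count table's annotation and the RefSeq starts (the former for Apoa1 and Apob). The bases are from RefSeq on GRCm38.p6, 5′ to 3′ on the gene's own strand. Capitals mark a TATA box, searched on both strands as the letters TATAAA. In the run of Apoe the capitals instead mark a GC box, a motif that was searched in the same way in every one of these promoters, as the letters GGCGGG.
Apoe (chr7:19699189-19699338, minus strand): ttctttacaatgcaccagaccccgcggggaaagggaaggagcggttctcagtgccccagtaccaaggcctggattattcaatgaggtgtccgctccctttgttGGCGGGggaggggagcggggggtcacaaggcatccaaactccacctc
Apoa1 (chr9:46228430-46228579, plus strand): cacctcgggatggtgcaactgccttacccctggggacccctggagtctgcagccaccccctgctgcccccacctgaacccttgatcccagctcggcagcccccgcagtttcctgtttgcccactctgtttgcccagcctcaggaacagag
Apoa5 (chr9:46268458-46268607, plus strand): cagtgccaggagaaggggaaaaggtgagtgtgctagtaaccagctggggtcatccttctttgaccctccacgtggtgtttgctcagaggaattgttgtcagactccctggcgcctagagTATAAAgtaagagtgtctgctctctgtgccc
Apob (chr12:7977498-7977647, plus strand): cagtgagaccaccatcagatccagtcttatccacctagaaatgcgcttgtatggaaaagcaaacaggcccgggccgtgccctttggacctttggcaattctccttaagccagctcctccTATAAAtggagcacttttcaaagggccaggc

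In Apoa5 and in Apob the TATAAA began at position -31 before the first annotated base, and in Apoe the GGCGGG began at -47. Over the 250 bases before each start, 8 of the 10 members had an entry in the RefSeq table (Apoc1 and Apoc3 had none). At the start nearest to the annotated gene start, 3 of these 8 held TATAAA (Apoa2, Apoa5 and Apob) and 1 held GGCGGG (Apoe). For Apoh this nearest start lay 51943 bases from the annotated one. Another RefSeq start of Apoe, 567 bases from its annotated start, did hold TATAAA. Of all 32851 windows of that length in the table, 12.4% held TATAAA and 32.5% held GGCGGG. These matches describe letters only.

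Total counts per library ran from 14403309 to 21623180. Levels are given as CPM (a gene's count scaled to a common library total) after TMM scaling within a tissue, and, where genes are compared with each other, as CPM per kb of exon. Mettl5 itself was at 3.85, 3.64 and 4.07 CPM in KO livers A, C and F and at 14.9, 8.13 and 8.35 in WT livers B, D and E. In brain it was at 3.33, 3.96 and 3.82 CPM in KO and 9.09, 5.87 and 5.02 in WT. Genotypes were thus apart in both tissues, but with all exons counted the difference did not pass the test over all genes (log2 fold change -1.44 in liver, adjusted p = 0.383, and -0.84 in brain, adjusted p = 0.373, edgeR). Mitochondrial ribosomal RNA took 7.36 to 8.66% of counts in KO liver and 10.7 to 16.9% in WT liver. In brain the order was the other way, 21.4 to 31.6% in KO and 7.63 to 17.7% in WT.

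The labelled tissues carried their own markers. The summed level of 10 hepatocyte markers was 67351 to 81362 CPM in the liver libraries of both genotypes, and that of 6 neuron markers was 2487 to 3088 CPM in brain and 8.24 to 16.7 CPM in liver.

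In WT liver the 10 transcripts spanned a wide range of levels per kb of exon. Apoe led with 8433 ± 1196 (SD, n = 3) CPM per kb, rank 7 of all genes, and its libraries lay clear of the next gene. Apoa2 (5062 ± 582), Apoa1 (4948 ± 1491) and Apoc1 (4529 ± 521) followed at ranks 11, 12 and 14, and neighbours among these 3 overlapped. Apob (662 ± 126) and Apoc3 (548 ± 7.23) also overlapped. Apoh (442 ± 24.9), which encodes beta-2-glycoprotein I, Apoa5 (249 ± 30.0) and Apoa4 (159 ± 56.6) each stood apart from the gene above. Apoc2, the cofactor that lipoprotein lipase needs, was last at 1.89 ± 0.720 CPM per kb. Over its 167 unshared bases alone, an alternative chosen after the data were seen, this became 9.21 ± 3.51 CPM per kb. These bases lie in exons shorter than the study's reads or at the edge of a shared exon. Reads over them would mostly touch shared bases too and may have been left out. The level of Apoc2 and its place in the order are therefore not settled. In KO liver the order was the same except that Apoa1 (6641 ± 281) stood above Apoa2 (4928 ± 776), with no overlap between the 2.

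**Figure D2:**
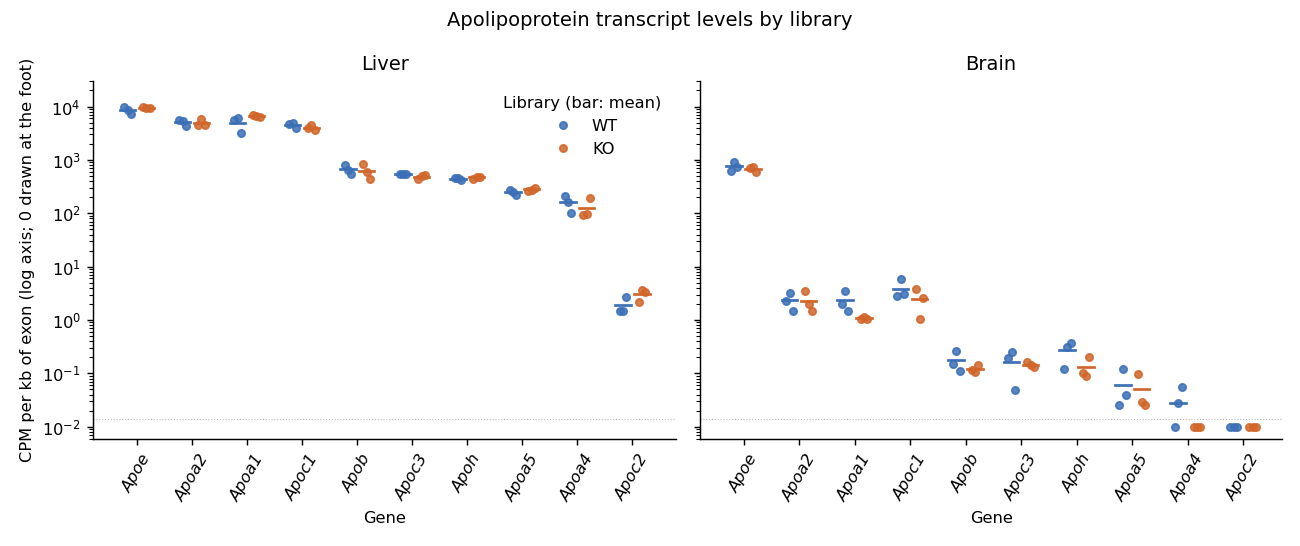
Level of each gene in CPM per kb of exon (log axis) in every liver library (left) and brain library (right), WT in blue and KO in orange; bars are group means, and libraries with 0 counts are drawn at the foot below the dotted line. Apoe is the highest gene in both tissues, and the other 9 genes reach at most 5.87 CPM per kb in any brain library.

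Together the 10 genes took 4.46 to 4.91% of all counts in KO liver (mean 4.64 ± 0.233%, n = 3) and 3.55 to 4.24% in WT liver (4.00 ± 0.389%, n = 3). The groups did not overlap, and the exact two-sided permutation test gave p = 0.1, the smallest value that 3 against 3 can give. The difference moved with the mitochondrial share: with mitochondrially encoded genes left out of the total, the ranges were 5.02 to 5.46% and 4.39 to 5.22%, which overlap (exact permutation p = 0.3). Its part in the result was otherwise not tested. In these bulk samples fewer cells of a type and less RNA per cell cannot be told apart.

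In liver, KO was set against WT to ask whether loss of Mettl5 changed the transcripts of the liver's lipid carriers. All 10 members entered the fit and 0 were called at an adjusted p under 0.1, in a fit where 0 of 14075 genes (0%) were called. DESeq2 called 171 of 15516 genes (1.1%), again with 0 members among them. At an unadjusted p under 0.05 edgeR had 1032 genes (7.33%) and 0 members. The members' log2 fold changes ran from -0.32 to 0.69, 5 above 0 and 5 below, with a median of 0.02 beside -0.0024 for all genes tested.

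Among the HDL proteins, Apoa1 was at 8591, 8121 and 7912 CPM in KO livers A, C and F and at 6939.7, 7404 and 4005 CPM in WT livers B, D and E. Every KO library was above every WT library, and the WT library of mouse E was the lowest. The fold change was 1.34 (95% interval 0.941 to 1.91; log2 0.42, SE 0.23; adjusted p = 0.757, edgeR). Of all genes tested, 6.5% had every KO library above every WT library and 6.44% had every KO library below, so 1 of 10 members in each direction (Apoa1 above, Apoc3 below) was near this background. Without mouse E the log2 fold change of Apoa1 was 0.19. Apoa2, the second HDL protein, was at 2379 to 3127 CPM in KO and 2364 to 2951 CPM in WT (log2 fold change -0.04, SE 0.17, interval -0.42 to 0.35), and its groups overlapped.

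Apob, which each VLDL particle carries as its scaffold, was at 11706, 8382.5 and 6096 CPM in KO livers A, C and F and at 11018, 9141 and 7502 CPM in WT livers B, D and E. The KO libraries spread wider than the WT libraries and enclosed them. The log2 fold change was -0.08 (SE 0.25, interval -0.64 to 0.48, adjusted p = 0.976, edgeR), and its sign turned when mouse B (0.07) or mouse F (0.12) was left out.

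Apoe was at 20693, 20021 and 20297 CPM in KO livers and at 20535, 18132 and 15422 CPM in WT livers. The KO libraries lay within 3 tight values (coefficient of variation 1.66%, against 14.2% in WT), and only WT mouse B reached into their range. The log2 fold change was 0.17 (SE 0.16, interval -0.19 to 0.54, adjusted p = 0.88, edgeR).

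Among the regulators of lipase, Apoc3, an inhibitor of triglyceride clearance, was at 435, 513 and 525 CPM in KO livers A, C and F and at 560.4, 547 and 559.6 CPM in WT livers. All 3 KO libraries were below all 3 WT libraries, by a small margin in mouse F. The log2 fold change was -0.18 (SE 0.14, interval -0.49 to 0.13, adjusted p = 0.861, edgeR). Apoc1, which inhibits lipases and lipid transfer, was at 2715 to 3301 CPM in KO and 2956 to 3726 CPM in WT (log2 fold change -0.17, SE 0.16). Apoa5, an activator of triglyceride clearance, was at 668 to 759 CPM in KO and 546 to 696 CPM in WT (0.17, SE 0.15). Both of these overlapped between genotypes. Apoc2 had 30, 52 and 52 counts in KO livers A, C and F and 23, 19 and 39 counts in WT livers B, D and E. Its log2 fold change of 0.69 had the widest interval but for Apoa4 (-0.15 to 1.53, adjusted p = 0.766, edgeR), and counts this low limit it.

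Apoa4, a protein of chylomicrons and HDL whose liver transcript is known to vary with feeding and fat load, was at 171, 174 and 352 CPM in KO livers A, C and F and at 390.4, 292 and 185 CPM in WT livers B, D and E. In each genotype 1 mouse stood at about the level of the other group, mouse F among KO and mouse E among WT. Its coefficient of variation was 44.5% in KO, the highest of the members, and 35.5% in WT, where that of Apoc2 was 38.1%. The log2 fold change was -0.32 (SE 0.37, interval -1.20 to 0.57, adjusted p = 0.919, edgeR), and it ran from -0.74 to -0.04 when single mice were left out. Mice E and F are those with few Y-linked counts, and with Y-linked transcripts as a covariate Apoa4 was not called either. Apoh was at 710 to 774 CPM in KO and 659 to 735 CPM in WT (0.08, SE 0.13), the narrowest interval of the 10 at -0.22 to 0.38.

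**Figure D3:**
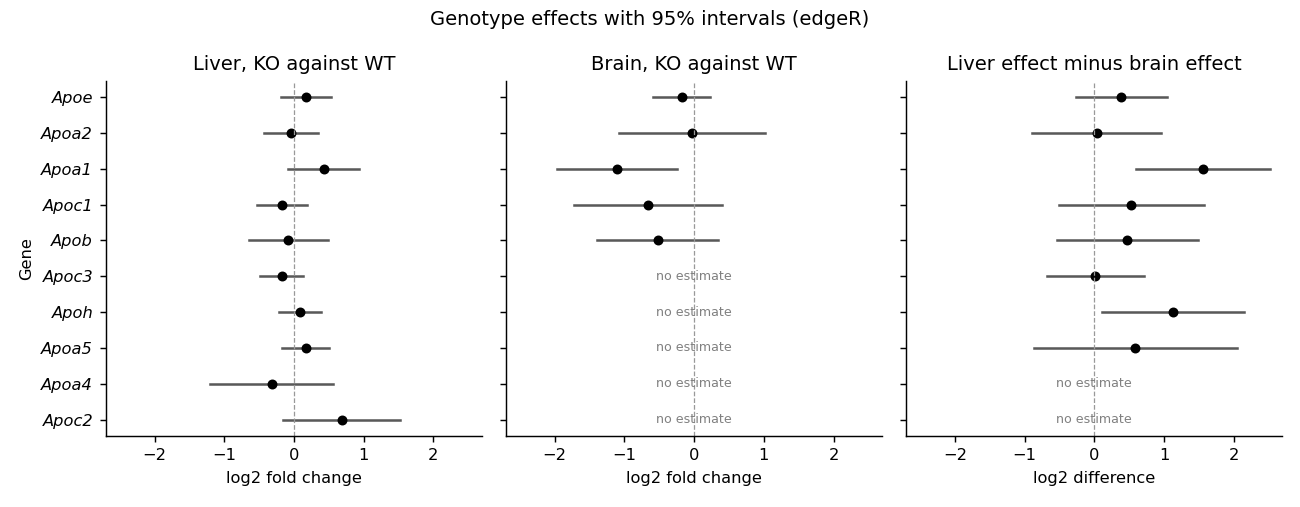
Log2 fold change (points) with 95% interval (lines) of each gene for KO against WT liver, KO against WT brain, and the liver effect minus the brain effect, from edgeR. In liver all intervals include 0; in brain only that of Apoa1 (-1.96 to -0.25) does not, and in the difference of effects those of Apoa1 (0.60 to 2.53) and Apoh (0.11 to 2.14) do not, before adjustment over all genes. Apoa5, Apoc3 and Apoh entered the last panel only through their liver counts, with 1 to 12 counts in a brain library, so their points there are no evidence of a difference.

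Brain held far less apolipoprotein transcript. The 10 genes took 0.122 to 0.153% of counts in KO brain and 0.138 to 0.226% in WT brain (exact permutation p = 0.2), and Apoe alone made up 99.2 to 99.7% of these counts in every brain library. Apoe ranked 25 of all genes per kb of exon in WT brain, at 761 ± 155 CPM per kb (n = 3). The next member, Apoc1, was at 3.89 ± 1.72 CPM per kb, Apoa1 (2.36 ± 1.05) overlapped with it and with Apoa2 (2.35 ± 0.889), and Apoa2 lay clear of Apoh, the gene below it. The remaining members were at most at 0.378 CPM per kb in any brain library. Apoc2 had 0 counts in all 6 brain libraries, for which 3 counts is the limit that a count of 0 allows in each library, and Apoa4 had 0 counts in all 3 KO brains and 0, 1 and 2 counts in WT brains B, D and E.

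WT liver against WT brain asks how tissue-bound each transcript is. All 10 members were called higher in liver, where 6268 of 17694 genes (35.4%) were called higher in liver and 78.3% were called in either direction (75.6% at an unadjusted p under 0.05 and 63.6% by DESeq2, each with all 10 members), and they are genes known for their liver expression, so this describes their levels. Apoe had the smallest difference, with a log2 fold change of 4.15 (SE 0.32, adjusted p = 7.94e-07, edgeR), or 17.8-fold. The scaling bears on this value: as plain shares of all counts Apoe was 9.74-fold higher in liver, and the median gene of the scaled fit stood at -0.16. For Apoa1, Apoa2, Apob and Apoc1 the log2 fold change ran from 10.85 for Apoc1 to 12.55 for Apob. Apoa4, Apoa5, Apoc3 and Apoh, with at most 12 counts in any brain library, entered this fit only through liver. No order is read from their values. As shares of summed counts, Apoa4 was 4791-fold higher in liver (95% counting interval 1639 to 23233, on 3 counts in WT brain). Apoc2 was at least 25.2-fold higher, with the floor of 3 counts set over the 3 WT brains. Such intervals cover counting error only.

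The libraries of 1 mouse can be set against each other. Per 1000 units of its share in liver, the brain share of Apoe was 74.3, 128 and 106 in WT mice B, D and E and 58.5, 77.0 and 54.9 in KO mice A, C and F. Mouse D was the highest and the genotypes overlapped. For the other members the brain share was at most 1.37 per 1000 of liver, with medians over the 6 mice of 0.737 for Apoc1, 0.415 for Apoa2, 0.341 for Apoh, 0.294 for Apoa1, 0.290 for Apoc3, 0.216 for Apob and 0.149 for Apoa5. Transcripts that mark hepatocytes lay in the same range: the median was 0.209 for Alb (albumin), 0.193 for Fgb (fibrinogen beta chain) and 0.253 for Cps1, the first enzyme of the urea cycle. Ttr, which the choroid plexus also makes, had a median of 58.4 and Ass1 one of 7.42. What part of the low brain counts comes from brain cells was not tested.

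**Figure D4:**
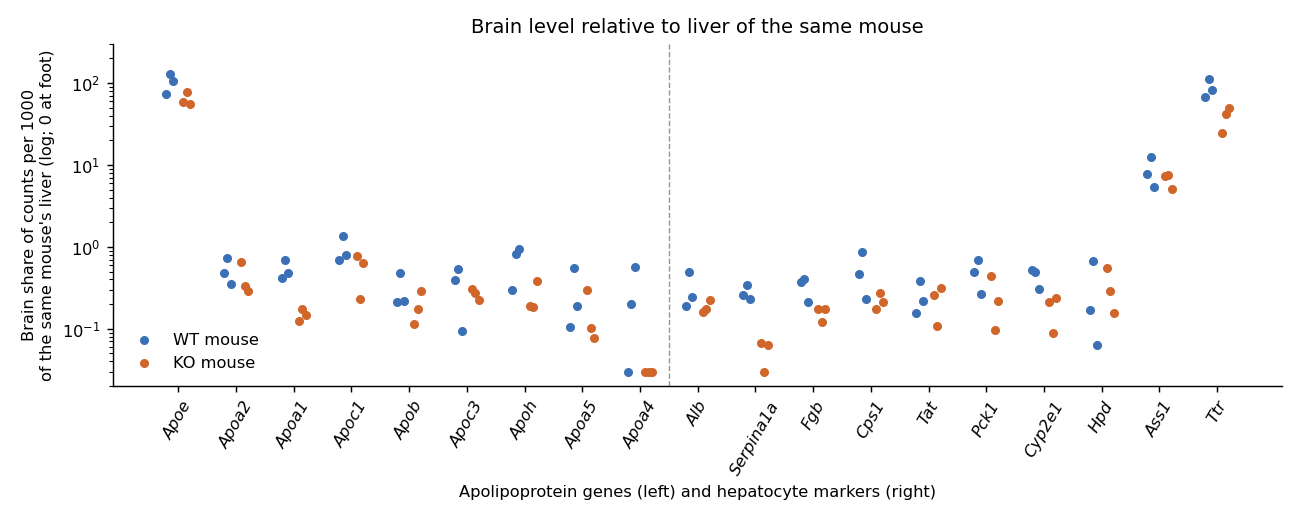
Share of counts in brain per 1000 of the share in liver of the same mouse (log axis; 0 drawn at the foot) for the apolipoprotein genes other than Apoc2 (left of the dashed line) and 10 hepatocyte markers (right), 1 point per mouse. Apoe lies between 54.9 and 128, while the other apolipoprotein genes reach at most 1.37 and the hepatocyte markers other than Ttr and Ass1 at most 0.874.

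The comparison of KO with WT brain could test 5 members, since Apoa4, Apoa5, Apoc2, Apoc3 and Apoh, with at most 12 counts in any brain library, did not pass the filter on low counts. Of these 5, 0 were called, where 11 of 17188 genes (0.064%) were called by edgeR and 269 of 16987 (1.58%) by DESeq2, which also called 0 members. At an unadjusted p under 0.05 there was 1 member, Apoa1, beside 11% of all genes.

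Apoa1 was at 1.30, 1.44 and 1.32 CPM in KO brains A, C and F (16, 20 and 20 counts) and at 2.51, 4.37 and 1.86 CPM in WT brains B, D and E (39, 87 and 37 counts). All KO libraries were below all WT libraries, which 7.94% of the genes tested also showed, and 8.41% had every KO library above, with 0 members among them. The log2 fold change was -1.10 (SE 0.38, interval -1.96 to -0.25; adjusted p = 0.392, edgeR, with 0.137 to 0.951 over the alternatives, among them 0.303 by DESeq2). Without mouse D it was -0.69, and without any other single mouse it was -1.08 to -1.34. Apoc1 (11 to 35 counts in KO, 32 to 87 in WT; -0.66, SE 0.48), Apob (20 to 30 and 31 to 74 counts; -0.52, SE 0.39) and Apoa2 (12 to 23 and 16 to 35 counts; -0.03, SE 0.47) had overlapping CPM ranges. In WT brain D each of these 4 genes had its highest count.

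Apoe in brain was at 1476, 1579 and 1248 CPM in KO mice A, C and F and at 1332, 1987 and 1559.7 CPM in WT mice B, D and E. The genotypes overlapped, with mouse D highest and mouse F lowest. The log2 fold change was -0.18 (SE 0.18, interval -0.59 to 0.23, adjusted p = 0.699, edgeR). Markers of astrocytes, its main source in brain, summed to 3364 to 4560 CPM in KO and 3497 to 4529 CPM in WT, a sum that is mostly Slc1a2 (1926 to 2769 and 1821 to 2693 CPM). Of the 9 markers, 8 had a log2 fold change below 0 (median -0.24, range -0.53 to 0.02) and 0 were called by edgeR or DESeq2. Their part in the Apoe value was not tested.

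Markers of other cells were set beside the Apoa1 values. The 9 choroid plexus markers were all lower in KO brain, with log2 fold changes from -1.59 to -0.22 and a median of -0.97. Of these, 0 were called by edgeR and 3 by DESeq2. Their summed level was 118, 188 and 162 CPM in KO brains A, C and F and 282, 400 and 234 CPM in WT brains B, D and E, and no marker of this list was at 0 in either group. The sum is mostly Ttr, at 97.4 to 161 CPM in KO and 196 to 345 CPM in WT. The 8 hepatocyte markers other than Ttr and Ass1 summed to 12.2 to 17.3 CPM in KO and 14.3 to 32.0 CPM in WT, with overlap and with mouse D highest; Alb was at 9.71 to 13.6 CPM in KO and 10.2 to 24.3 CPM in WT. The 5 blood markers summed to 32.6 to 44.2 CPM in KO and 34.9 to 62.7 CPM in WT. The part of these cells in the Apoa1 difference was not tested.

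**Figure D5:**
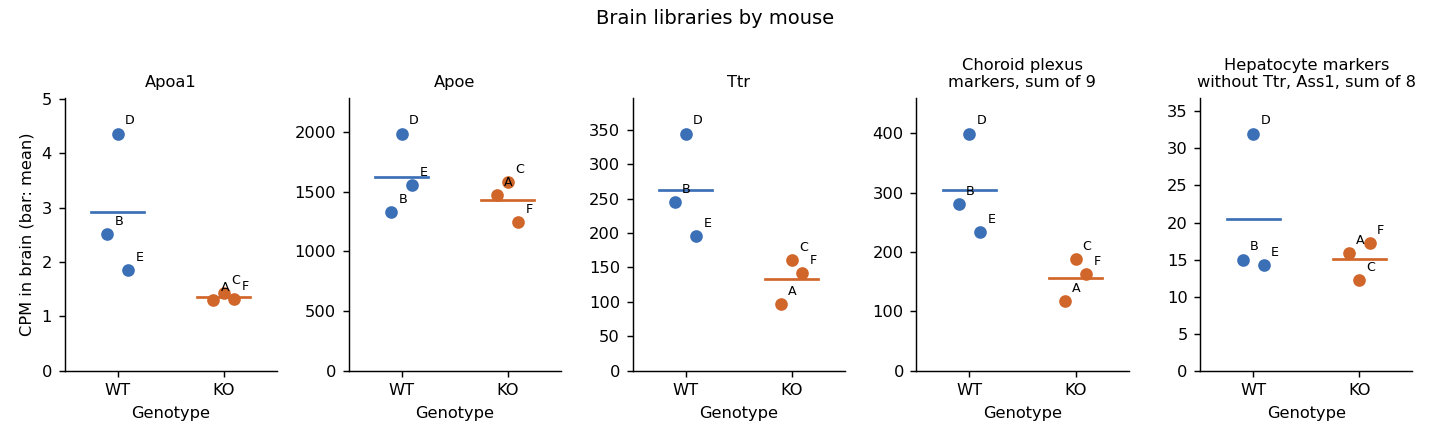
CPM in the 3 WT and 3 KO brain libraries (points, labelled by mouse; bars are means) of Apoa1, Apoe, Ttr, the sum of 9 choroid plexus markers and the sum of 8 hepatocyte markers; each axis starts at 0. For Apoa1, Ttr and the choroid plexus sum all KO libraries lie below all WT libraries, while Apoe and the hepatocyte sum overlap.

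The fit over all 12 libraries tests whether the genotype effect differed between the tissues. It called 0 of 18944 genes (0%) and 0 members, and 68 genes (0.359%) with the mouse as a replicate block, again with 0 members. Apoa1 had the lowest p of the members, at a liver effect minus brain effect of 1.56 on the log2 scale (SE 0.45, interval 0.60 to 2.53; adjusted p = 0.242, edgeR, and 0.219 with the block). DESeq2 called 369 of 17699 genes (2.08%) and, of the members, Apoa1 (adjusted p = 0.0493, the lowest of the alternatives, whose highest was 0.618). Before adjustment, 2 members (Apoa1 and Apoh) had a p under 0.05, beside 10.6% of all genes. Apoh, with 2 to 5 counts in KO brains and 3 to 12 in WT brains, was under the filter in brain and entered this fit only through its liver counts, so nothing is read from its value. Apoe had a difference of 0.39 (SE 0.30, interval -0.27 to 1.04). The difference was 0.53 (SE 0.49) for Apoc1, 0.47 (SE 0.47) for Apob and 0.04 (SE 0.43) for Apoa2, which turned sign when single mice were left out. Apoa5 and Apoc3 entered only through liver, as Apoh did, and for Apoa4 and Apoc2, with groups of brain libraries at 0, no estimate is given.

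The proteins that apolipoproteins work with were followed through 5 lists. In liver 0 genes of any list were called by edgeR. The median log2 fold change was -0.16 over 11 other apolipoproteins, -0.03 over 12 lipoprotein receptors and their regulators, 0.07 over 10 lipases and their regulators, -0.11 over 13 genes of lipoprotein assembly, lipid loading and Apob editing, and -0.02 over 20 transcription factors, beside -0.0024 over all genes.

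Of the lipase regulators, Angptl8, a secreted protein that restrains lipoprotein lipase after feeding, was at 19.6, 21.0 and 12.2 CPM in KO livers A, C and F and at 54.2, 27.3 and 27.0 CPM in WT livers B, D and E. All KO libraries were below all WT libraries, as for 6.44% of all genes tested, and WT mouse B stood highest. The log2 fold change was -1.04 (SE 0.33, adjusted p = 0.521, edgeR). DESeq2 called it (adjusted p = 0.071), as did edgeR without the filter on low counts, which called 443 of 27130 genes. The adjusted p of Angptl8 over the alternatives ran from 6.8e-06 to 0.985.

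Of the receptors, Scarb1, which takes up cholesterol from HDL, was at 119 to 145 CPM in KO and 87.8 to 103 CPM in WT (0.47, SE 0.14, adjusted p = 0.467, edgeR). Sort1, a sorting receptor that handles Apob, was at 28.6 to 48.2 CPM in KO and 14.5 to 27.8 CPM in WT (0.83, SE 0.27, adjusted p = 0.517), and it was called without the filter on low counts and with Y-linked transcripts as a covariate (adjusted p = 0.0301). Both had no overlap between genotypes, and 6.5% of all genes tested had every KO library above every WT library. They were picked for the smallest p of their list, so this adds no evidence. With the Y-linked covariate 82 of 14075 genes were called, and without the filter 443 of 27130. For assembly, Mia2, which loads large cargo for export from the endoplasmic reticulum, had a log2 fold change of -0.56 (SE 0.17, adjusted p = 0.485) and was called without the filter, and Sar1b, a GTPase of the same route, had -0.34 (SE 0.14, adjusted p = 0.640). Apom, an HDL protein, had 0.35 (SE 0.20, adjusted p = 0.766) and Apol9a -0.93 (SE 0.61, adjusted p = 0.833). Of the transcription factors, Foxa2 had 0.41 (SE 0.16, adjusted p = 0.620) and the bile acid receptor Nr1h4 -0.24 (SE 0.13, adjusted p = 0.766), all by edgeR.

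In brain 0 list genes were called by edgeR or DESeq2. The medians were -0.12 over 3 other apolipoproteins, -0.09 over 13 receptors, -0.20 over 6 lipase genes, -0.23 over 12 assembly genes and -0.18 over 12 transcription factors, beside -0.0016 over all genes. Apoe has partners here that load it with lipid: Abca7 was at 11.2 to 17.7 CPM in KO and 20.6 to 33.7 CPM in WT (-0.78, SE 0.24, adjusted p = 0.355) and Abcg1 at 38.0 to 46.8 and 45.4 to 68.3 CPM (-0.37, SE 0.17, adjusted p = 0.464). Mylip, which marks lipoprotein receptors for degradation, was at 11.5 to 15.1 CPM in KO and 18.4 to 21.2 CPM in WT (-0.62, SE 0.16, adjusted p = 0.32). Lcat, which esterifies cholesterol on HDL, had -0.63 (SE 0.28, adjusted p = 0.449) and Pltp, a phospholipid transfer protein, -0.74 (SE 0.40, adjusted p = 0.516). Clu, another apolipoprotein of astrocytes, had -0.26 (SE 0.17, adjusted p = 0.572), Apol8 0.35 (SE 0.35, adjusted p = 0.691) and Rora -0.38 (SE 0.13, adjusted p = 0.392), all by edgeR. Mylip, Lcat and Abca7 were called without the filter on low counts, a setting in which 1000 of 31780 genes were called.

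Between WT tissues most genes of each list were called higher in liver. All 10 lipases and their regulators were called higher in liver (among them Angptl4, Angptl8, Gpihbp1, Lcat, Lipc, Lipg, Lmf1, Lpl and Pltp). Of 13 other apolipoproteins, 11 were higher in liver (Apoc4, Apof, Apol7a, Apol9a, Apol9b, Apom, Apon, Clu, Saa1, Saa2 and Saa4) and 2 in brain (Apod and Apol8). Of 13 receptor genes, 9 were higher in liver (among them Lrp1, Lrp2, Mylip, Scarb1, Sdc1 and Stab1), 3 in brain (Lrp8, Sorl1 and Sort1), and Vldlr was not called. Of 13 assembly genes, 11 were higher in liver (A1cf, Abca1, Apobec1, Cideb, Mia2, Mia3, Mttp, P4hb, Sar1b, Surf4 and Tm6sf2) and the lipid exporters Abca7 and Abcg1 were higher in brain. Of 20 transcription factors, 16 were higher in liver (among them Cebpa, Cebpb, Creb3l3, Foxa2, Hnf4a, Nr0b2, Nr1d1, Nr1h3, Nr1h4, Nr2f2, Nr5a2, Onecut1, Ppara and Rxra), 2 in brain (Nr2f1 and Ppargc1a), and Nr1h2 and Rora were not called. Mylip and Nr1d1 kept their call in 7 of 9 alternatives. These counts stand beside the 35.4% of all genes that were higher in liver. Some of the calls are of genes that passed the filter only through the tissue where they are high. Angptl8 had 0 counts in every brain library, and Apom, Foxa2, Hnf4a and Nr1h4 had at most 5. Apod and Apol8 had at most 1 count in any WT liver library.

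In the difference of genotype effects between tissues 0 list genes were called by edgeR. The members of each list with the smallest p were Mylip (0.87, SE 0.27, adjusted p = 0.279) and Sort1 (0.95, SE 0.35, adjusted p = 0.368) among receptors, Mia2 (-0.83, SE 0.26, adjusted p = 0.289, and 0.0679 by DESeq2) and Abcg1 (0.74, SE 0.27, adjusted p = 0.376) among assembly genes, and Lipg (-1.45, SE 0.60, adjusted p = 0.419) and Angptl4 (1.11, SE 0.48, adjusted p = 0.442) among lipases. Hnf4a and Foxa2 came first among the transcription factors, but with at most 5 counts in any brain library they entered only through liver and get no value. Apol8 and Apod, with 0 counts in all KO livers, get no value.

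The genes closest to Apoe over the 12 libraries, by the mean absolute difference of log2 CPM centred on each gene's mean among 12574 genes tested in both tissues, were Gldc (0.12), the glycine cleavage enzyme, Fcgrt (0.13), the neonatal Fc receptor, Dhrs3 (0.13), Amacr (0.13) and Aldh16a1 (0.13). Gldc was at 209 to 230 CPM in KO liver, 180 to 256 in WT liver, 13.3 to 17.1 in KO brain and 13.4 to 22.8 in WT brain. The likeness is mostly that of the liver and brain levels. Over the 6 liver libraries the genes closest to Apoa4, among 14075, were Ttc30a1 (0.15), Slc16a9 (0.17), Tigd5 (0.18), Cfap126 (0.19) and Tmem51 (0.19), of which Ttc30a1 and Slc16a9 were at 0.241 to 1.10 and 1.33 to 3.29 CPM in liver, against 171 to 390.4 CPM for Apoa4.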

How the data were processed

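The authors deposited 1 table of raw read counts per gene for 12 libraries. They prepared stranded total RNA libraries (SMARTer kit), read them as single ends, checked reads with FastQC 0.11.5, trimmed them with Trimmomatic, aligned them to mm10 with STAR 2.7.3a and counted exons by gene and strand with featureCounts. Symbols came from a GENCODE name list (55141 of 55487 genes matched), and 54435 gene IDs shared with the mm10 annotation had the same start and end.

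Counts were tested with edgeR 4.0.16 (R 4.3.3): filterByExpr, TMM, robust quasi-likelihood F test, Benjamini-Hochberg over all genes tested, called at an adjusted p under 0.1. SE and 95% intervals come from the same fit. Alternatives were DESeq2 1.42.0, RLE scaling, no filter, a Y-linked covariate (over 100 summed counts of 4 genes), all 12 libraries in 1 fit, each mouse left out and the mouse as a block. The fits were tested on simulated data. Liver and brain of 1 mouse share its letter, so the block rests on the labels; the correlation of their deviations over 12574 genes was -0.04 to 0.14. Replicates are separate mice per the labels, and libraries within a group correlated at 0.963 to 0.982. Likeness used log2(CPM + 0.5).

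The members and lists were chosen with earlier results of these data known. All 10 members are named; of each list, the genes called, or where fewer than 2 were called the 2 with the smallest p; and the 5 genes nearest to Apoe and to Apoa4. Some genes of the lists that this rule picks are not reported here. The authors' own DESeq2 results were not used.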

Additional observations from a re-analysis of the deposited data

Results flagged for a closer look

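Apoa1 had every KO liver above every WT liver and every KO brain below every WT brain. Of all genes tested, 6.5% showed the former in liver and 7.94% the latter in brain. The difference between these effects was 1.56 on the log2 scale (SE 0.45, adjusted p = 0.242 by edgeR, 0.219 with the replicate block and 0.0493 by DESeq2). Over the alternatives the difference ran from 1.29 to 1.77 and the adjusted p from 0.0493 to 0.618. The brain side rests on 16 to 87 counts per library. No member was tested for a single far library, since groups of 3 are too small for that.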

How the results depend on the processing

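The number of members called was 0 in liver and 0 in brain under every alternative run, and 10 for WT liver against WT brain. In the difference of genotype effects it was 0 except with DESeq2, where it was 1 (Apoa1). With the replicate block (paired by mouse) it was 10 for the tissues and 0 for the difference, so the block changed no member's call. Counts over all genes moved more: in liver 0 became 171 with DESeq2, 443 without the filter, 82 with the Y-linked covariate, 3 in the fit of all libraries, and 2 and 87 without mice C and D; in brain 11 became 269 with DESeq2, 1000 without the filter and 2 to 23 without single mice; in the difference 0 became 369 with DESeq2, 183 without the filter, 68 with the block, 1 with RLE scaling, 86 without mouse D and 1 without mouse F. The causes were not tested.

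With mitochondrially encoded genes left out of the total, the members' share was 5.18% in KO liver, 4.82% in WT liver, 0.182% in KO brain and 0.206% in WT brain. The share of all counts, mitochondrial genes included, was also taken without single mice. It was then 4.51 to 4.74% in KO liver, 3.88 to 4.22% in WT liver, 0.123 to 0.138% in KO brain and 0.154 to 0.198% in WT brain.

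Log2 fold changes turned sign when single mice were left out for Apoa2 (-0.18 to 0.034) and Apob (-0.35 to 0.12) in liver and Apoa2 (-0.43 to 0.29) in brain. In the difference of effects the same held for Apoa2 (-0.27 to 0.50), Apoa5 (-0.27 to 1.38) and Apoc3 (-0.49 to 0.46), and Apoc3 was -0.007 with RLE scaling. Apoa5 and Apoc3 had 1 to 6 counts per brain library and entered that fit only through liver. Low counts limit Apoc2 (19 to 52 in liver), whose overlap with Gm44805 may have left reads out. In brain they limit every member but Apoe.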
